A study of Mus musculus with 15 samples.

Results

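The conjugation enzymes of drug and hormone metabolism were followed in mouse liver under 3 feeding regimens. They were taken by name from the gene table: every protein-coding gene of the glutathione S-transferases (GST), the microsomal glutathione transferases (MGST), the UDP-glucuronosyltransferases (UGT) and the sulfotransferases (SULT). The rule found 62 of the 35275 genes listed, of which 22026 are protein-coding: 21 GST, 3 MGST, 20 UGT and 18 SULT genes. Polyadenylated RNA was sequenced from the left lateral liver lobe of C57BL/6 mice, an inbred laboratory strain, with 5 libraries in each of 3 groups. The mice of the EOD group were fasted for 24 h every other day, those of the IF16 group were fasted for 16 h, and those of the AL group ate ad libitum. Per the labels the mice of all 3 groups were assigned at random, were 3 months old at the start, stayed on their regimen for 3 months and were 6 months old at the end. Whether the 5 libraries of a group come from 5 mice, and when in the feeding cycle the tissue was collected, is not in the labels. A p-value here therefore sets a difference against the scatter of these libraries, some of which may be technical.

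Conjugation is the second step in the clearance of drugs, steroids, bilirubin and other lipophilic compounds, in which a polar group is joined to the compound so that it can leave the cell in bile or blood. GSTs join glutathione to electrophiles, UGTs transfer glucuronic acid from UDP-glucuronate, and SULTs transfer sulfate from the donor PAPS. Hepatocytes carry these enzymes at high levels, and nuclear receptors and the antioxidant regulator NRF2 are known to set the transcription of many of them.

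The libraries held 28129883 to 38147534 counts, and the conjugation genes took 1.60% of them in EOD, 1.60% in IF16 and 1.52% in AL (SD 0.174, 0.0589 and 0.0688, n = 5 each). AL replicates 4 and 5 stood apart from the rest: 7 acute phase transcripts summed to 21515 and 34252 CPM (counts scaled to the TMM-adjusted library total) there, and to 7661.8 to 10849 CPM in the other 13 libraries. A list of 5 neutrophil genes summed to 26.2 and 25.1 CPM in these libraries and to 1.04 to 3.58 CPM elsewhere. EOD replicate 5 had 10.1% of its counts on mitochondrially encoded genes, against 5.34% to 6.83% in the other EOD libraries and 8.98% to 15.1% in IF16 and AL. Of 6 sinusoidal endothelium markers, 5 were higher in EOD and 4 in IF16 than in AL, when 17.6% of all tested genes were higher in EOD and 1.4% in IF16 (adjusted p under 0.05), and their sum was 156 to 189 CPM in EOD, 148 to 177 CPM in IF16 and 67.1 to 122.7 CPM in AL. Of 6 stellate cell markers, 4 were higher in EOD than in AL (sums of 337 to 461 CPM in EOD and 208 to 339.5 CPM in AL). AL replicates 4 and 5 were the lowest libraries for both lists. They had 73.6 and 67.1 CPM of endothelium markers and 208 and 212 CPM of stellate cell markers. AL replicates 1 to 3 had 98.9 to 122.7 CPM and 300.3 to 339.5 CPM. Of 7 hepatocyte markers, 1 was higher and 1 lower in EOD than in AL (sums of 97542 to 124491 CPM in EOD and 91318 to 112328 CPM in AL), and no marker of these 3 lists was at 0. In whole liver, fewer cells of a type and less RNA per cell cannot be told apart, and the part of these shifts in the results below was not tested.

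Transcript levels differed over several orders of magnitude between the genes. On the length-scaled FPKM (counts scaled to gene length and library total) the authors deposited, Mgst1, a membrane-bound glutathione transferase and peroxidase of the endoplasmic reticulum, was the highest, with 3758 ± 579 FPKM in EOD, 3798 ± 340.5 FPKM in IF16 and 4021 ± 253 FPKM in AL (SD, n = 5 each). Gstp1, a pi-class GST, followed with 3528 ± 772 FPKM in EOD, 2859 ± 423 FPKM in IF16 and 3054 ± 1509 FPKM in AL. Gstm1, the main mu-class GST of mouse liver, had 836 ± 169 FPKM in EOD, 1279.8 ± 85.3 FPKM in IF16 and 1263 ± 316 FPKM in AL. The highest UGTs by the mean FPKM of the 15 libraries were Ugt2b5 at 564 and Ugt2b36 at 448 FPKM. The highest SULT among the genes taken by name was Sult1a1, a phenol sulfotransferase, at 187 FPKM. Gsta3, Gstz1 and Gstt1 lay between, at 516, 426 and 281 FPKM. A SULT gene outside the naming rule, 2810007J24Rik (Sult2a8 in the reference), was above Sult1a1, at 431 FPKM. The neighbours Mgst1 and Gstp1 overlapped in their ranges over the 15 libraries, as did Ugt2b5 and Gsta3.

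**Figure D1:**
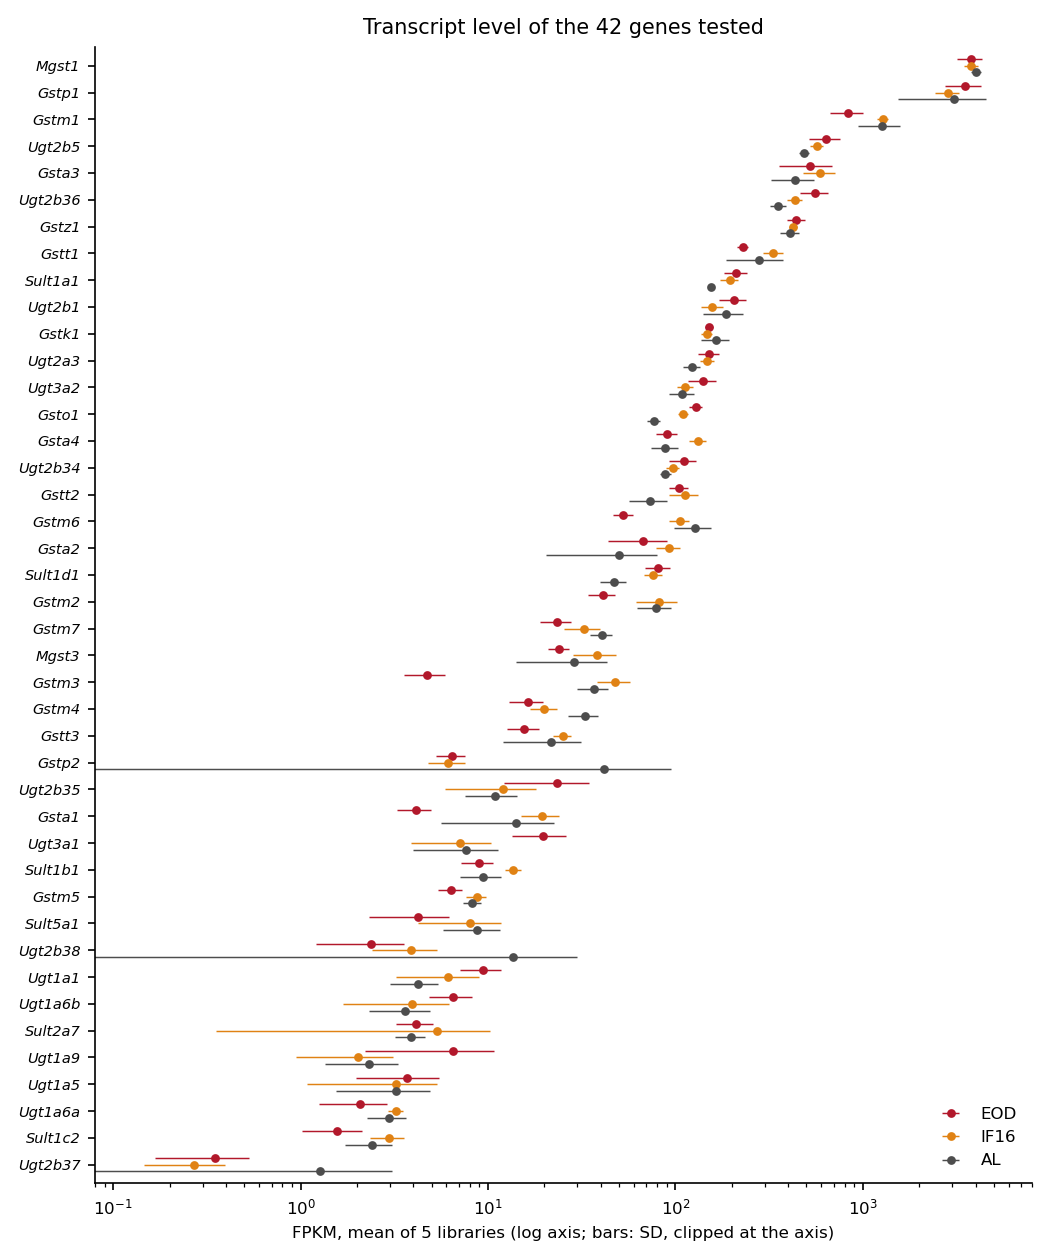
Mean FPKM of the 42 conjugation genes that were tested, on a log axis, in order of their mean over all 15 libraries; points are group means of 5 libraries and bars are SD. Mgst1 and Gstp1 lead the list, the EOD points of Gstm3 and Gsta1 lie to the left of the IF16 and AL points, and the AL bars of Gstp2, Ugt2b38 and Ugt2b37 reach beyond the left edge of the axis.

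Of the 62 genes, 42 passed the filter on low counts and 20 did not. A gene passes this filter if it reaches about 10 counts in 5 libraries, which a group can bring about alone. Sult1c1, Sult2a3, Sult2a4 and Sult2a6 had no count in any library. Sult1e1, the estrogen sulfotransferase, had 2 to 29 counts, its highest in AL replicate 4, and Ugt1a7c had 0 to 11. The other 14 genes below the filter were Gstt4, Gsto2, Mgst2, Sult2a1, Sult2a2, Sult2a5, Sult2b1, Sult3a1, Sult4a1, Sult6b1, Ugt1a10, Ugt1a2, Ugt1a8 and Ugt2a1, with 0 to 9 counts in any library. Sult2a1 and Sult2a2, hydroxysteroid and bile acid sulfotransferases, had at most 2 and 3 counts. A floor of 3 counts is 0.0786 to 0.107 CPM, by library, and covers counting error only.

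In EOD against AL, 24 of the 42 tested genes passed the threshold (an adjusted p under 0.05 by edgeR's quasi-likelihood test with Benjamini-Hochberg adjustment), 13 higher and 11 lower, when 35.2% of all 13837 tested genes passed and 17.6% passed in each direction. The members' share was 57.1%. More GSTs fell than rose, and more UGTs rose than fell. Of 19 tested GSTs 2 were higher, Gsto1 and Gstt2, and 9 were lower. Of these 9, 7 were the Gstm genes of 1 cluster, so the fall of the GSTs is mostly that of the cluster. The other lower GSTs were Gsta1 and Gstp2, and the Gstp2 call was lost without AL replicates 4 and 5. Of 15 UGTs 9 were higher and 1 lower, and 2 of the 15 had groups that did not overlap. The 9 higher UGTs were 2 Ugt1, 5 Ugt2 and 2 Ugt3 genes. Genes of a UGT subfamily lie as neighbours, so these rises may not be independent. Of the 9, only the calls of Ugt1a1, Ugt2b36 and Ugt3a1 held in all 26 alternatives. Of 6 SULTs 2 were higher and 1 lower, and neither of the 2 MGSTs passed. The median log2 fold change was -0.37 over the GSTs, 0.38 over the UGTs and 0.03 over the SULTs, and -0.01 over all genes tested. In IF16 against AL 5 of the 42 passed, 4 higher and 1 lower, when 3.5% of all genes passed, 1.4% higher and 2.1% lower. In EOD against IF16 14 passed, 2 higher and 12 lower, when 16.1% of all genes passed, 7.96% higher and 8.15% lower. The 3 comparisons share their groups in pairs, so their calls are not independent of each other. Groups whose 5 libraries did not overlap were seen for 10 of the 42 genes in EOD against AL, 6 in IF16 against AL and 8 in EOD against IF16, when 18.6%, 5.78% and 10.9% of all genes were apart in this way.

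**Figure D2:**
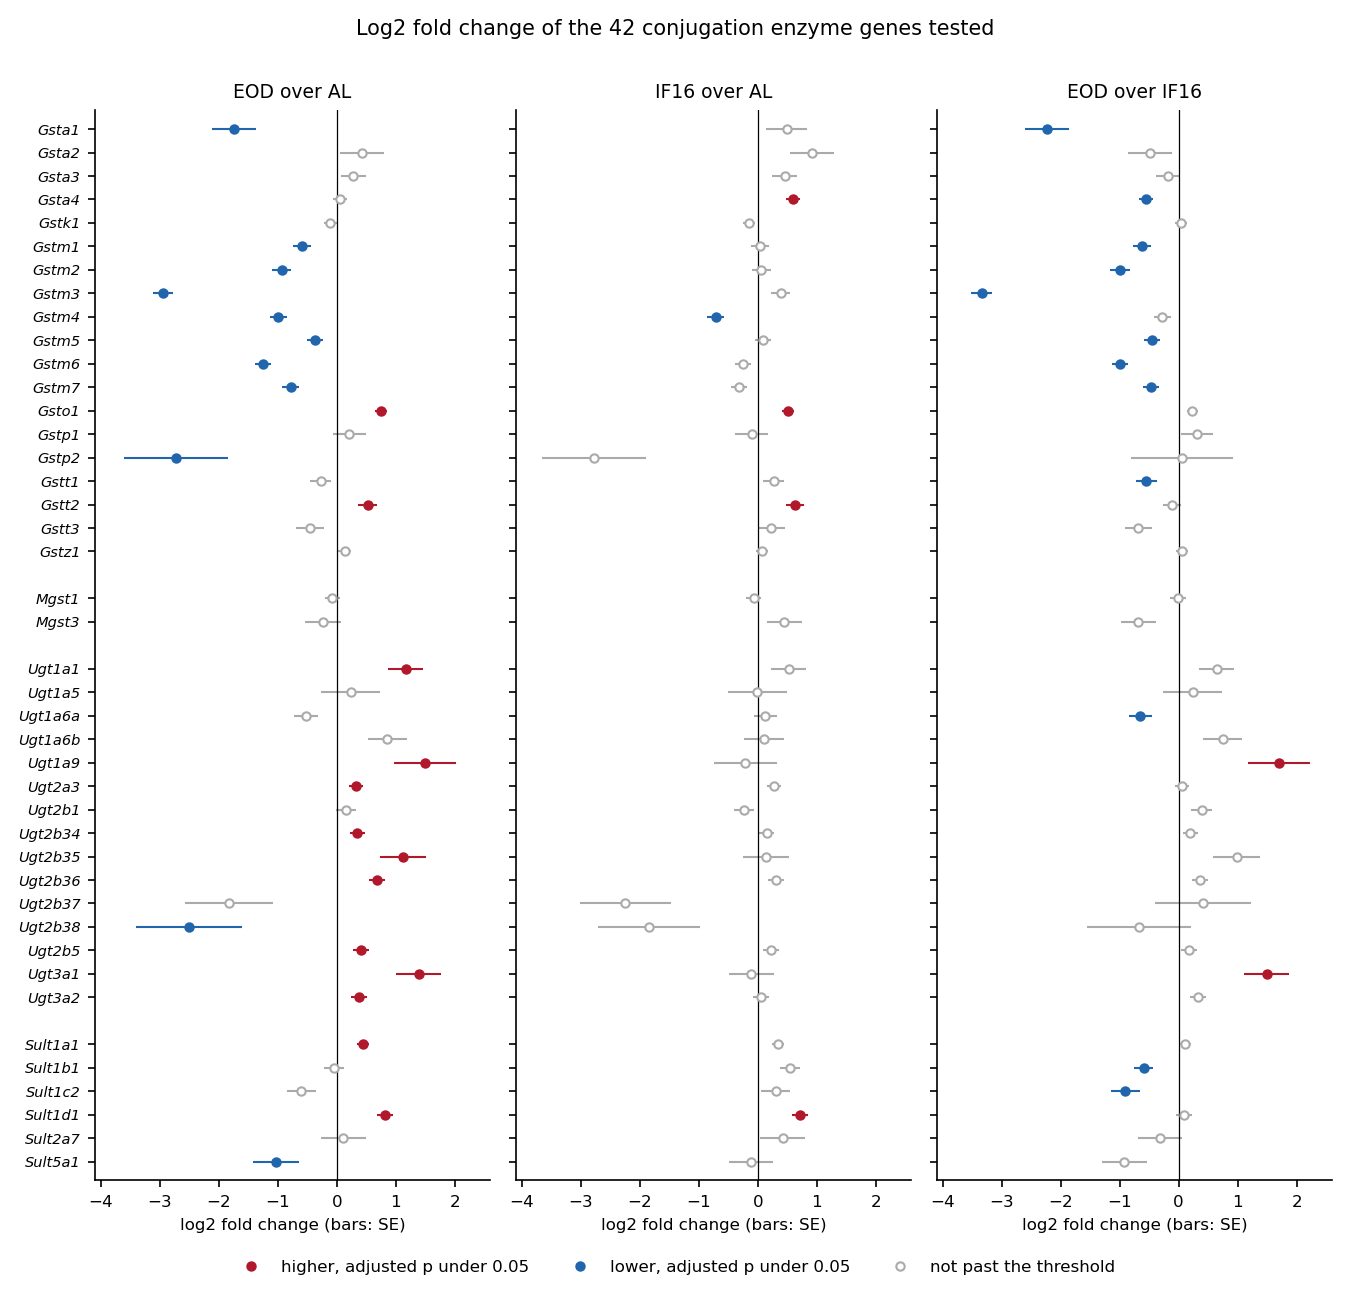
Log2 fold changes with SE of the 42 tested genes, by family, for EOD over AL, IF16 over AL and EOD over IF16; filled red points are higher and filled blue points lower with an adjusted p under 0.05, open points did not pass. In the left panel the 7 Gstm genes all lie below 0, down to -2.95 for Gstm3, and most UGTs lie above 0.

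The 7 mu-class genes, Gstm1 to Gstm7, were all lower in EOD than in AL. They lie side by side on chromosome 3 (mm10), from Gstm5 at chr3:107895821-107898686 to Gstm4 at chr3:108040408-108044894, and all but Gstm5 are on the minus strand. Gstm3 (ENSMUSG00000004038, chr3:107963696-107969283) had 6.03, 7.16, 4.51, 5.44 and 7.77 CPM in the EOD libraries, 65.8, 75.9, 56.6, 45.9 and 69.6 CPM in the IF16 libraries and 56.3, 49.8, 53.1, 35.3 and 44.9 CPM in the AL libraries. Every EOD library lay far below every IF16 and AL library, by 7.73-fold against AL and 10.1-fold against IF16 in the fit. The log2 fold change was -2.95 (SE 0.17, adjusted p = 8.43e-09) in EOD against AL and -3.34 (SE 0.18, adjusted p = 3.90e-09) in EOD against IF16. Gstm6 had 55.2, 72.5, 55.1, 67.8 and 61.1 CPM in the EOD libraries, 116, 135, 114, 112 and 146 CPM in the IF16 libraries and 157, 160.1, 189, 113 and 122 CPM in the AL libraries. Its EOD libraries were again below all others, and the log2 fold changes were -1.25 (SE 0.14, adjusted p = 5.26e-06) against AL and -0.999 (SE 0.14, adjusted p = 0.000146) against IF16. Gstm2 had 39.1, 54.8, 40.6, 38.6 and 45.0 CPM in the EOD libraries, 102, 105, 77.2, 58.4 and 91.7 CPM in the IF16 libraries and 92.6, 83.6, 104, 65.5 and 70.4 CPM in the AL libraries. It too was apart in EOD, with -0.93 (SE 0.16, adjusted p = 0.000359) against AL and -0.99 (SE 0.16, adjusted p = 0.000688) against IF16.

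Gstm4 was the gene of the cluster that was lower under both regimens. It had 34.7, 32.1, 27.7, 21.4 and 23.9 CPM in the EOD libraries, 38.8, 38.2, 28.0, 31.5 and 33.6 CPM in the IF16 libraries and 65.9, 50.5, 65.9, 47.5 and 48.2 CPM in the AL libraries. The EOD and IF16 libraries overlapped each other and lay below every AL library, with log2 fold changes of -0.99 (SE 0.14, adjusted p = 7.95e-05) in EOD and -0.71 (SE 0.14, adjusted p = 0.0107) in IF16 against AL. EOD and IF16 differed by -0.28 (SE 0.14, adjusted p = 0.192). Gstm7 averaged 32.1 ± 5.74 CPM in EOD, 44.6 ± 7.88 CPM in IF16 and 55.3 ± 6.91 CPM in AL (SD, n = 5 each), with the EOD libraries below every AL library and overlapping IF16. It fell in EOD by both comparisons, -0.79 (SE 0.14, adjusted p = 0.000385) against AL and -0.47 (SE 0.14, adjusted p = 0.0258) against IF16. The second of these was lost when EOD replicate 3 or 4 or IF16 replicate 1, 2 or 5 was left out alone (adjusted p up to 0.0831).

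Gstm1, the most abundant of the cluster, had 1168, 1028, 920.1, 943 and 1306 CPM in the EOD libraries, 1398, 1779, 1716, 1777 and 1613 CPM in the IF16 libraries and 1654, 2035, 1897, 1093 and 1401 CPM in the AL libraries. The EOD libraries lay below all IF16 libraries and overlapped AL replicate 4, the lowest of its group. Gstm1 fell by 0.59 on the log2 scale in EOD against AL (SE 0.15, adjusted p = 0.00610) and by 0.63 against IF16 (SE 0.15, adjusted p = 0.00984). Gstm5 averaged 6.92 ± 1.02 CPM in EOD, 9.50 ± 1.39 CPM in IF16 and 8.92 ± 1.21 CPM in AL (SD, n = 5 each), and its groups overlapped. The log2 fold change in EOD against AL was the smallest of the cluster, -0.37 (SE 0.14, adjusted p = 0.0451), and that against IF16 was -0.46 (SE 0.14, adjusted p = 0.0297) against IF16. The call against AL held in 13 of the 26 alternatives and was lost when EOD replicate 1, 2 or 4, IF16 replicate 2, 3, 4 or 5 or AL replicate 3 or 5 was left out alone (adjusted p up to 0.128). The call against IF16 was lost when EOD replicate 1 or 2 or IF16 replicate 3, 4 or 5 was left out alone (adjusted p up to 0.0827). With AL replicates 4 and 5 left out, the log2 fold changes of Gstm3, Gstm6 and Gstm1 in EOD against AL were -3.07 (adjusted p = 2.48e-08), -1.41 (adjusted p = 2.33e-06) and -0.77 (adjusted p = 0.000531). Of 1262 windows of 50 bases in the Gstm3 transcript, 28.8% also occur in transcripts of other genes, and 23.2% do for Gstm1, so that part of their reads may have been left uncounted or split. Of 6 pericentral hepatocyte markers, 1 was higher in EOD than in AL (Cyp2e1, log2 fold change 0.91) and 3 were lower. Among all genes 17.6% passed in each direction. The lower ones included Cyp1a2 (-1.12) and Rgn (-0.85), and 0 of the 6 were at 0. The 6 summed to 13457 to 15806 CPM in EOD, 10731 to 12630.2 CPM in IF16 and 8555.5 to 11842 CPM in AL. Most of that sum is Cyp2e1, and summing without it was not planned. The other 5 summed to 2911.9 to 3312 CPM in EOD, 3949 to 4428 CPM in IF16 and 4015 to 5174 CPM in AL. That was lower in every EOD library than in any IF16 or AL library. Of 6 periportal hepatocyte markers, 0 were higher and 1 was lower in EOD than in AL. They summed to 7262 to 9437 CPM in EOD and 7900.5 to 10049 CPM in AL. The part of these markers in the fall of the Gstm genes was not tested.

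**Figure D3:**
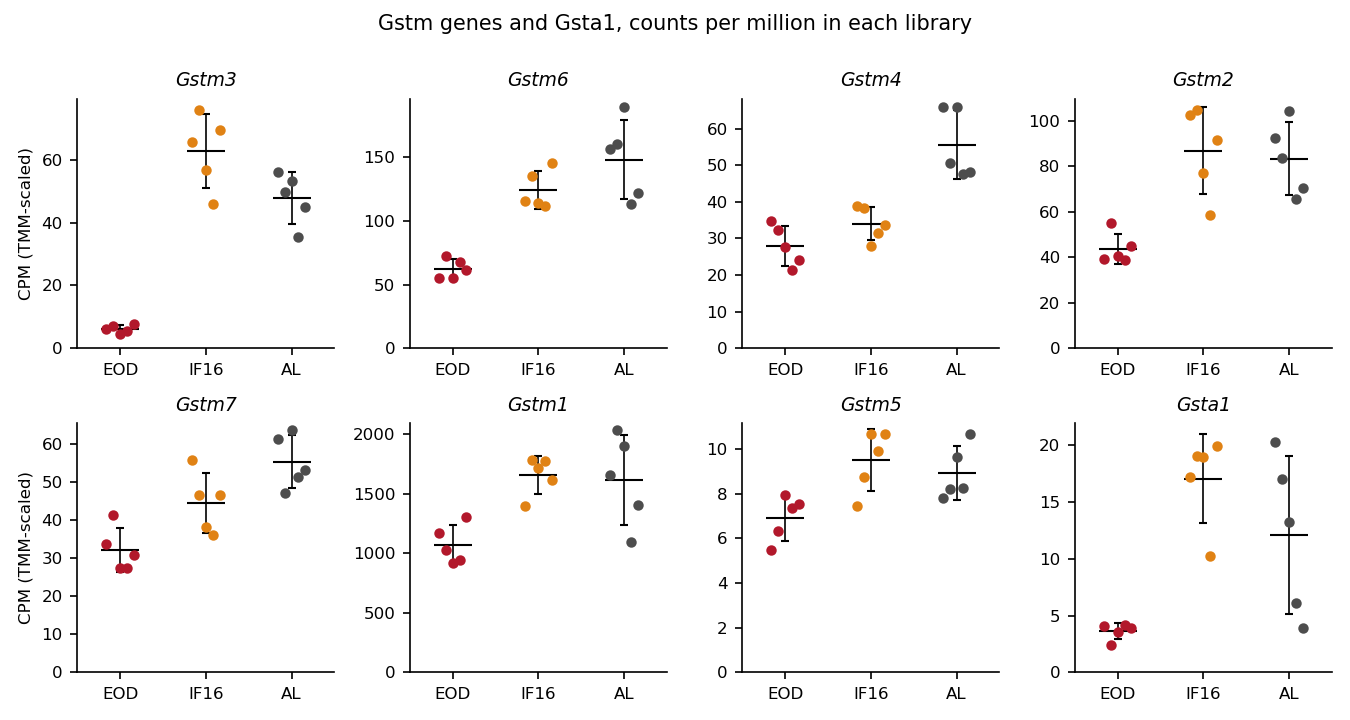
TMM-scaled CPM of the 7 Gstm genes and Gsta1 in each library (points), with group mean and SD (bars), each panel with its own axis from 0. The EOD points of Gstm3, Gstm6 and Gstm2 lie below every IF16 and AL point, and those of Gstm4 and Gstm7 below every AL point.

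The promoters of 4 genes of the cluster are shown because the genes fell together in EOD. Each is the window from 250 bases before to 50 bases after the RefSeq transcript start (GRCm38.p6), read 5′ to 3′ on the gene's strand, with capitals for CCAAT boxes (CCAAT), nuclear receptor half-sites (AGGTCA) and antioxidant response element cores (TGACNNNGC) on either strand.
Gstm3 (chr3:107969125-107969424, minus strand): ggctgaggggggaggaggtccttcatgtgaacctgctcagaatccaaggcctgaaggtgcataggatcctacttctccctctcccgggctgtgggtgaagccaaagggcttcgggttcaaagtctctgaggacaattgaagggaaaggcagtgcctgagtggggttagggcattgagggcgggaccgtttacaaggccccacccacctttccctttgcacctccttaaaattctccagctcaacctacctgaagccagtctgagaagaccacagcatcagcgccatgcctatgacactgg
Gstm6 (chr3:107943685-107943984, minus strand): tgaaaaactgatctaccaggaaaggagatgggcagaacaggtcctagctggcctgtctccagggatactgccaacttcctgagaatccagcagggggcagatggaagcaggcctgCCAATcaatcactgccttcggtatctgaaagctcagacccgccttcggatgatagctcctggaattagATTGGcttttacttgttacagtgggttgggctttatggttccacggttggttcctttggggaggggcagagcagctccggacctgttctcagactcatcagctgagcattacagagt
Gstm2 (chr3:107986371-107986670, minus strand): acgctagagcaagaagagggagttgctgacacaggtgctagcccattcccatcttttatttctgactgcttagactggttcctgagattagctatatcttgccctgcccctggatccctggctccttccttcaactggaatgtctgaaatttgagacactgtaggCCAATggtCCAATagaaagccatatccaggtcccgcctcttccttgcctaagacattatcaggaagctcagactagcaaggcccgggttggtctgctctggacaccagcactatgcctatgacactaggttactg
Gstm1 (chr3:108017924-108018223, minus strand): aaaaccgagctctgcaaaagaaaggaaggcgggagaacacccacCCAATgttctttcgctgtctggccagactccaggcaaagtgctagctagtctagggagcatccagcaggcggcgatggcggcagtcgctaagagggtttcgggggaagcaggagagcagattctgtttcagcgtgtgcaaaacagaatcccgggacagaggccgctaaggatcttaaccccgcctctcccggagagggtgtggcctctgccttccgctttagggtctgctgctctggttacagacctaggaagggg
CCAAT was found in the windows of Gstm1, Gstm2, Gstm4, Gstm6 and Gstm7 and not in those of Gstm3 and Gstm5, and in 37.4% of all 32851 promoter windows of that length. In Gstm2 it occurs at 85 and at 77 bases before the start, and in Gstm6 at 135 and, on the other strand, at 67 bases before it. TGACNNNGC was found in Gstm5 alone among the 7 and in 12.4% of all windows, and AGGTCA in none of the 7 and in 16.3% of all windows. The 7 windows were 44.8% to 51.0% identical in pairs. The identity of windows of unrelated genes was not measured, so these values do not show shared promoter sequence. A match of letters is a description and not a binding site.

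Among the alpha-class genes, Gsta1 was lower in EOD and Gsta4 was higher in IF16. Gsta1 (chr9:78230656-78242684) had 4.06, 2.45, 3.52, 4.18 and 3.89 CPM in the EOD libraries, 17.2, 18.99, 18.9, 10.2 and 19.9 CPM in the IF16 libraries and 20.2, 17.0, 13.2, 6.12 and 3.92 CPM in the AL libraries. The EOD libraries lay below every IF16 library and below AL replicates 1 to 4, and overlapped AL replicate 5. The log2 fold changes were -1.74 (SE 0.37, adjusted p = 0.00236) against AL and -2.24 (SE 0.37, adjusted p = 0.00135) against IF16, and -2.19 (adjusted p = 4.70e-06) against AL without AL replicates 4 and 5. Of the 50-base windows of Gsta1, 89.7% also occur in other genes, most in the gene model Gm3776, so its level is uncertain. Gsta4, which conjugates the lipid peroxidation product 4-hydroxynonenal, had 101, 76.5, 96.0, 79.7 and 81.5 CPM in the EOD libraries, 113, 139.5, 139, 108 and 135 CPM in the IF16 libraries and 93.9, 91.1, 91.8, 68.0 and 75.9 CPM in the AL libraries. The IF16 libraries were above every EOD and every AL library, with 0.59 (SE 0.12, adjusted p = 0.00996) in IF16 against AL and -0.55 (SE 0.12, adjusted p = 0.00522) in EOD against IF16. Without AL replicates 4 and 5 the IF16 difference was 0.47 (adjusted p = 0.0644). Gsta3, the most abundant alpha-class gene, averaged 1467 ± 502 CPM in EOD, 1658 ± 305 CPM in IF16 and 1207 ± 287 CPM in AL (SD, n = 5 each) and passed in no comparison. Gsta2 lay between 40.2 and 79.1 CPM in EOD (median 52.6), between 58.8 and 94.2 CPM in IF16 (median 83.8) and between 16.5 and 68.7 CPM in AL (median 54.4). Its AL replicates 4 and 5, at 16.5 and 16.8 CPM, were the lowest of all libraries, and 64.2% of its windows occur in other genes.

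The pi-class genes Gstp1 and Gstp2 passed or missed the threshold with 2 AL libraries, replicates 4 and 5, whose acute phase sums are given above. Gstp3, listed under another name, is given further below. Gstp1 (chr19:4035407-4037921) had 2487, 2400.5, 3887, 2598 and 2103 CPM in the EOD libraries, 1910.1, 1869, 2025, 2562 and 2481 CPM in the IF16 libraries and 1359.7, 1364, 1662, 3356 and 3896 CPM in the AL libraries. AL replicates 4 and 5 were above all IF16 libraries and AL replicates 1 to 3 were below all EOD and IF16 libraries. Over the full groups no difference passed (log2 fold change 0.21, SE 0.28, adjusted p = 0.584 in EOD against AL). Without AL replicates 4 and 5, Gstp1 was higher in EOD, by 0.91 (adjusted p = 0.00181). Gstp2 had 4.13, 5.01, 5.62, 4.14 and 5.74 CPM in the EOD libraries, 3.48, 3.51, 5.79, 5.55 and 5.45 CPM in the IF16 libraries and 2.40, 3.31, 6.01, 96.6 and 54.7 CPM in the AL libraries. AL replicates 4 and 5 were far above all others. The call in EOD against AL, -2.73 (SE 0.88, adjusted p = 0.0291), held in 12 of the 26 alternatives, and the value was 0.36 (adjusted p = 0.308) without both of them. The call was also lost when EOD replicate 1, 2, 3 or 4 or AL replicate 4 or 5 was left out alone (adjusted p up to 0.0923). Of the windows of Gstp2, 64.3% occur in Gstp1 as well. Genes known to differ between the sexes in mouse liver also moved with these libraries. A list of 7 male-biased genes summed to 4381 to 11169 CPM in EOD and 3075 to 4789 CPM in IF16. In AL their sum was 11459 and 11556 CPM in replicates 4 and 5 and 2797.5 to 4225 CPM in the other libraries. Gene by gene this list was mixed in EOD against AL. Of the 7, 1 was higher and 2 were lower, beside 17.6% of all genes in each direction. Their log2 fold changes ran from -5.40 to 1.61, with a median of -0.90. EOD replicate 3, the highest EOD library of the male-biased sum, was also the highest EOD library for Gstp1. Its Gstp2 and Ugt2b38, however, were at 5.62 and 8.07 CPM, against 96.6 and 66.8 CPM in AL replicate 4. In IF16 the male-biased sum was highest in replicate 3 and Gstp1 in replicate 4. A list of 8 female-biased genes summed to 27.8 to 55.8 CPM in EOD and 30.6 to 73.4 CPM in IF16. In AL their sum was 3.66 and 1.45 CPM in replicates 4 and 5 and 15.9 to 32.0 CPM in the other libraries. Sult2a1 and Sult3a1 are on this list but had at most 2 and 4 counts in any library. Of its 4 genes that were tested, 2 were higher and 1 was lower in EOD than in AL, with log2 fold changes from -3.71 to 3.44. The labels give no sex, 0 genes of either list were at 0 in every library, and the part of these genes in the results for Gstp1, Gstp2 and Ugt2b38 was not tested.

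**Figure D4:**
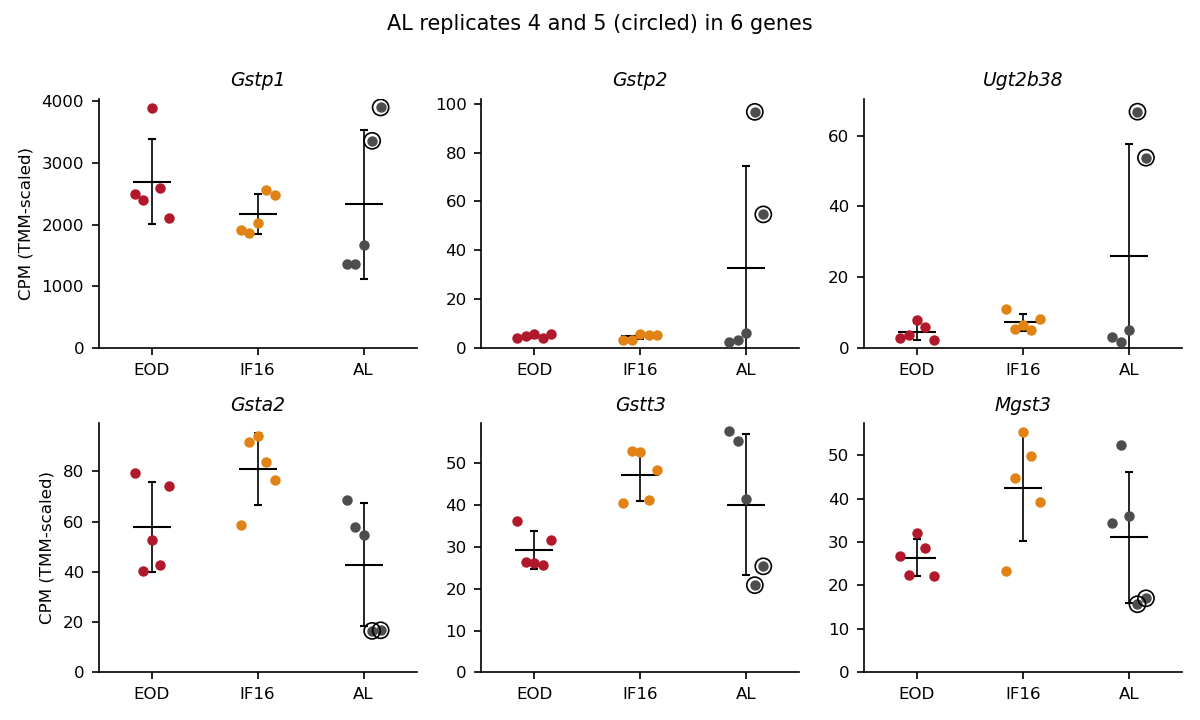
TMM-scaled CPM in each library of 6 genes in which AL replicates 4 and 5 (circled) lie away from AL replicates 1 to 3; bars are group mean and SD, drawn down to 0 at most. The circled points of Gstp1, Gstp2 and Ugt2b38 are the top of the AL group, and those of Gsta2, Gstt3 and Mgst3 its bottom.

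Of the theta-class genes, which act on small halogenated compounds, Gstt2 was higher under both regimens. It had 131, 122.8, 163, 168 and 133 CPM in the EOD libraries, 126, 167, 193, 119.6 and 169 CPM in the IF16 libraries and 80.7, 130.3, 117, 85.4 and 86.7 CPM in the AL libraries. EOD and IF16 lay above every AL library but replicate 2, which overlapped both. The log2 fold changes were 0.52 (SE 0.16, adjusted p = 0.0161) in EOD and 0.63 (SE 0.16, adjusted p = 0.0323) in IF16 against AL. The IF16 call was lost when IF16 replicate 2, 3 or 5 or AL replicate 1, 4 or 5 was left out alone (adjusted p up to 0.119), and without both AL replicates 4 and 5 the values were 0.42 (adjusted p = 0.0918) in EOD and 0.51 (adjusted p = 0.159) in IF16. Gstt1 had 228, 269, 257, 285 and 229.6 CPM in the EOD libraries, 291, 414, 434, 353 and 363 CPM in the IF16 libraries and 363, 412, 348, 198 and 214 CPM in the AL libraries. It was below every IF16 library in EOD, -0.55 (SE 0.18, adjusted p = 0.0424), a call that held in 12 of the 26 alternatives and was lost when EOD replicate 1, 2, 3, 4 or 5, IF16 replicate 2, 3, 4 or 5 or AL replicate 1 or 3 was left out alone (adjusted p up to 0.106). Against AL the EOD difference was -0.28 (SE 0.18, adjusted p = 0.238), and -0.53 (adjusted p = 0.00714) without AL replicates 4 and 5, the lowest libraries of AL. Gstt3 averaged 29.3 ± 4.65 CPM in EOD, 47.2 ± 6.07 CPM in IF16 and 40.2 ± 16.8 CPM in AL (SD, n = 5 each). Its EOD libraries were apart from IF16 with log2 fold change -0.69, SE 0.23, adjusted p = 0.0535, and against AL it had -0.46 (adjusted p = 0.136), or -0.79 (adjusted p = 0.00117) without AL replicates 4 and 5. Of its windows, 26.0% occur in the gene model Gm20441.

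Gsto1, the omega-class GST with thioltransferase and dehydroascorbate reductase activity, was higher under both regimens and under every alternative tried. It lies at chr19:47854970-47864790 and had 168, 151, 154, 161 and 128 CPM in the EOD libraries, 119.6, 141, 126, 127 and 136 CPM in the IF16 libraries and 85.2, 76.9, 98.9, 94.7 and 98.1 CPM in the AL libraries. The EOD and IF16 libraries all lay above the AL libraries and overlapped each other. Gsto1 was 1.68-fold higher in EOD (log2 fold change 0.75, SE 0.10, adjusted p = 2.97e-05) and 1.43-fold higher in IF16 (log2 fold change 0.51, SE 0.10, adjusted p = 0.00749) than in AL. EOD and IF16 differed by 0.23 (SE 0.10, adjusted p = 0.108), and by 0.32 (adjusted p = 0.0188) without EOD replicate 5, the lowest of its group. Gstz1, which isomerizes maleylacetoacetate in tyrosine breakdown, averaged 740.4 ± 107 CPM in EOD, 712 ± 31.6 CPM in IF16 and 675 ± 63.0 CPM in AL, and Gstk1, a mitochondrial and peroxisomal GST, averaged 142 ± 8.74 CPM in EOD, 138 ± 12.9 CPM in IF16 and 153 ± 22.6 CPM in AL (SD, n = 5 each). Neither passed in any comparison, and their largest difference was -0.15 (SE 0.10, adjusted p = 0.485) for Gstk1 in IF16 against AL.

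The membrane-bound transferases did not pass in any comparison. Mgst1 had 4012, 5127, 4814, 5024 and 3143 CPM in the EOD libraries, 3602, 4747, 4984, 4742 and 4207 CPM in the IF16 libraries and 4854, 4472, 4886, 4336 and 4817 CPM in the AL libraries. All 3 groups overlapped and the differences were within 1 SE of 0. Mgst3 lay between 22.3 and 32.0 CPM in EOD (median 26.7), between 23.2 and 55.4 CPM in IF16 (median 44.8) and between 15.7 and 52.2 CPM in AL (median 34.5). AL replicates 4 and 5, at 15.7 and 17.1 CPM, were its lowest libraries, and its largest difference was -0.68 (SE 0.30, adjusted p = 0.130) in EOD against IF16.

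The UGT1 genes are read from 1 locus on chromosome 1 in which each first exon is spliced to the same set of later exons, and 50.3% to 82.7% of their exon bases are shared with other genes, so their counts are uncertain. Ugt1a1, the enzyme that conjugates bilirubin, was higher in EOD. It lies at chr1:88211959-88218997 and had 28.3, 21.8, 22.6, 16.4 and 15.8 CPM in the EOD libraries, 21.8, 15.6, 13.9, 6.43 and 9.51 CPM in the IF16 libraries and 10.7, 4.8, 10.1, 11.7 and 9.42 CPM in the AL libraries. The EOD libraries lay above every AL library and overlapped IF16. Ugt1a1 was 2.24-fold higher in EOD than in AL (log2 fold change 1.16, SE 0.29, adjusted p = 0.00685), and its log2 fold change in IF16 against AL was 0.52 (SE 0.29, adjusted p = 0.367). AL replicate 2, at 4.8 CPM, was the lowest library, and the call held in all 26 alternatives, its removal among them. Ugt1a9, which conjugates phenols, had 26.9, 11.3, 21.6, 6.00 and 5.92 CPM in the EOD libraries, 7.15, 6.11, 3.32, 1.52 and 3.97 CPM in the IF16 libraries and 6.15, 1.28, 5.84, 5.56 and 6.65 CPM in the AL libraries. EOD replicates 1 to 3 were above every other library, and replicates 4 and 5 lay within the AL range. Its calls, 1.49 (SE 0.53, adjusted p = 0.0406) against AL and 1.71 (SE 0.53, adjusted p = 0.0424) against IF16, held in 12 of the 26 alternatives and in 10 of the 26 alternatives. Against AL the call was lost when EOD replicate 1, 2 or 3, IF16 replicate 5 or AL replicate 1, 2, 3, 4 or 5 was left out alone (adjusted p up to 0.114), and against IF16 when EOD replicate 1, 2 or 3, IF16 replicate 2, 3, 4 or 5 or AL replicate 1, 3, 4 or 5 was left out alone (adjusted p up to 0.116).

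The 3 other UGT1 genes tested gave less. Ugt1a6a, a phenol transferase, averaged 6.88 ± 2.44 CPM in EOD, 10.8 ± 0.806 CPM in IF16 and 9.87 ± 2.19 CPM in AL (SD, n = 5 each). It fell in EOD against IF16, -0.65 (SE 0.20, adjusted p = 0.0345), with overlap, and missed the threshold against AL, -0.52 (SE 0.20, adjusted p = 0.0517). The call against IF16 was lost when EOD replicate 1, 3 or 4 or IF16 replicate 1, 3, 4 or 5 was left out alone (adjusted p up to 0.0938). Every 50-base window of its transcript occurs in Ugt1a7c too. Ugt1a6b did not pass, with 0.86 (SE 0.34, adjusted p = 0.0606) in EOD against AL, and had 0.97 (adjusted p = 0.0483) without EOD replicate 5. Ugt1a5 lay between 3.48 and 13.8 CPM in EOD (median 9.20), between 1.65 and 12.1 CPM in IF16 (median 5.09) and between 3.35 and 12.3 CPM in AL (median 5.74), and its differences were within 1 SE of 0 in all 3 comparisons.

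The UGT2 genes stand in a row on chromosome 5 and include the most abundant UGTs. Ugt2b36 (chr5:87065927-87092555) had 892, 1181, 1262, 1206 and 768 CPM in the EOD libraries, 673, 896, 952, 802 and 796 CPM in the IF16 libraries and 722, 614, 729, 634 and 624 CPM in the AL libraries. Every EOD library was above every AL library, and EOD replicate 5 was the lowest of its group. Ugt2b36 was 1.60-fold higher in EOD than in AL (log2 fold change 0.68, SE 0.14, adjusted p = 0.00116), a call that held in all 26 alternatives. Against IF16 it was 0.37 (SE 0.14, adjusted p = 0.0734), and 0.49 (adjusted p = 0.00758) without EOD replicate 5. Ugt2b5 had 1019, 1484, 1376, 1270.3 and 836 CPM in the EOD libraries, 959.9, 1124, 1228, 996 and 983 CPM in the IF16 libraries and 919, 857, 987, 869.5 and 886 CPM in the AL libraries. EOD replicate 5 was below every AL library and EOD replicates 1 to 4 were above every AL library. The log2 fold change was 0.41 (SE 0.13, adjusted p = 0.0262) in EOD against AL, lost when EOD replicate 2, 3 or 4 or AL replicate 2 or 4 was left out alone (adjusted p up to 0.0852), and 0.54 (adjusted p = 0.00128) without EOD replicate 5. Of its windows 34.8% occur in Ugt2b38.

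Ugt2a3, Ugt2b34 and Ugt2b35 were also higher in EOD than in AL with EOD replicate 5 the lowest of the group. Ugt2a3 averaged 324 ± 55.5 CPM in EOD and 259 ± 22.1 CPM in AL with log2 fold change 0.33, SE 0.12, adjusted p = 0.0379, lost when EOD replicate 1, 2, 3 or 4 or AL replicate 2, 4 or 5 was left out alone (adjusted p up to 0.110). Ugt2b34 averaged 481 ± 94.4 CPM in EOD and 379.7 ± 24.6 CPM in AL with log2 fold change 0.34, SE 0.13, adjusted p = 0.0434, lost when EOD replicate 1, 2, 3 or 4, IF16 replicate 2 or AL replicate 2, 3, 4 or 5 was left out alone (adjusted p up to 0.112). Ugt2b35 had 60.7, 54.4, 51.6, 23.3 and 16.8 CPM in the EOD libraries, 35.5, 25.2, 19.3, 9.87 and 14.9 CPM in the IF16 libraries and 25.4, 11.5, 15.6, 23.7 and 19.1 CPM in the AL libraries. EOD replicates 1 to 3 were above every other library, and replicates 4 and 5 were within the AL range. Its log2 fold change was 1.12 (SE 0.39, adjusted p = 0.0406) in EOD against AL, lost when EOD replicate 1, 2 or 3 or AL replicate 2, 3 or 5 was left out alone (adjusted p up to 0.0985). Ugt2b1 averaged 531 ± 104 CPM in EOD, 406 ± 44.7 CPM in IF16 and 478 ± 125 CPM in AL (SD, n = 5 each) and passed in no comparison. Without EOD replicate 5 the values in EOD against AL were 0.45 (adjusted p = 0.00143) for Ugt2a3, 0.48 (adjusted p = 0.000992) for Ugt2b34 and 1.35 (adjusted p = 0.0111) for Ugt2b35. Leaving out the lowest EOD library of a gene that is higher in EOD raises its difference by construction, so these values add no support.

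Ugt2b38 was lower in EOD than in AL, a call that was lost without AL replicates 4 and 5. It had 2.96, 3.72, 8.07, 6.03 and 2.16 CPM in the EOD libraries, 11.1, 5.46, 6.48, 5.12 and 8.24 CPM in the IF16 libraries and 3.03, 1.86, 4.99, 66.8 and 53.8 CPM in the AL libraries. AL replicates 4 and 5 were far above the rest, and of the other 3 AL libraries replicate 2 was below the EOD range and replicates 1 and 3 were within it. The log2 fold change was -2.51 (SE 0.90, adjusted p = 0.0452) and was 0.50 (adjusted p = 0.395) without these libraries, and the call held in 6 of the 26 alternatives. It was lost when EOD replicate 1, 2, 3, 4 or 5, IF16 replicate 1, 2, 3, 4 or 5 or AL replicate 4 or 5 was left out alone (adjusted p up to 0.126). Ugt2b37, the lowest gene tested, had 8.61 and 1.79 CPM in AL replicates 4 and 5 and 0.157 to 1.07 CPM in all other libraries. Its log2 fold change in EOD against AL was -1.83 (SE 0.75, adjusted p = 0.0714), and 0.24 (adjusted p = 0.740) without them.

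The promoters of Ugt2b36 and Ugt2b5 are shown because these were the most abundant UGTs and both were higher in EOD. The windows, the source and the capitals are those used for the Gstm genes.
Ugt2b36 (chr5:87092506-87092805, minus strand): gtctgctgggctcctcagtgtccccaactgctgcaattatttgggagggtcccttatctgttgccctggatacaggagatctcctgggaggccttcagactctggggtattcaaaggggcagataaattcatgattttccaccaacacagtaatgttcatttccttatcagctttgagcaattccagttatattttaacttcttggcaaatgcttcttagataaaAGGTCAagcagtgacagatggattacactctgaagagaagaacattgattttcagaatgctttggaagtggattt
Ugt2b5 (chr5:87140291-87140590, minus strand): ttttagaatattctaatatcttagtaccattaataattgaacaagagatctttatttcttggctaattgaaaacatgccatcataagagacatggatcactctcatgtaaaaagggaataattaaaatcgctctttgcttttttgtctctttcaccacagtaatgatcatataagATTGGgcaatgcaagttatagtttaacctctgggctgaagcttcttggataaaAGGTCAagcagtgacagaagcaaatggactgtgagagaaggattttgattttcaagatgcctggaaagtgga
AGGTCA was found in the windows of Ugt2b35, Ugt2b36, Ugt2b37, Ugt2b38 and Ugt2b5, at 25 bases before the start in Ugt2b36 and Ugt2b38 and at 22 bases before it in Ugt2b5. It was not found in those of Ugt2a1, Ugt2a3, Ugt2b1 and Ugt2b34, and 16.3% of all windows hold it. Around it, Ugt2b36, Ugt2b37, Ugt2b38 and Ugt2b5 share a run of 22 letters (GATAAAAGGTCAAGCAGTGACA), found in 4 of the 32851 windows. Of the 5 genes with this half-site, Ugt2b35, Ugt2b36 and Ugt2b5 were higher in EOD than in AL, Ugt2b38 was lower, with 2 high AL libraries, and Ugt2b37 did not pass. Ugt2b38 and Ugt2b5 are 84.2% identical over the window, and Ugt2b36 and Ugt2b5 are 61.4% identical. TGACNNNGC was in none of the 9 Ugt2 windows.

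Both UGT3 genes were higher in EOD than in AL. The human enzymes UGT3A1 and UGT3A2 use N-acetylglucosamine and glucose or xylose in place of glucuronic acid. Ugt3a1 (chr15:9273319-9315032) had 56.8, 53.4, 55.4, 33.3 and 24.1 CPM in the EOD libraries, 24.99, 20.8, 12.5, 10.3 and 10.6 CPM in the IF16 libraries and 26.6, 5.84, 20.8, 18.6 and 13.4 CPM in the AL libraries. EOD replicates 1 to 4 were above every AL and IF16 library, and EOD replicate 5 overlapped both groups. Ugt3a1 was 2.61-fold higher in EOD than in AL (log2 fold change 1.39, SE 0.38, adjusted p = 0.0122) and 2.82-fold higher than in IF16 (log2 fold change 1.49, SE 0.38, adjusted p = 0.0177), and both calls held in all 26 alternatives. Ugt3a2 averaged 329.7 ± 64.6 CPM in EOD, 264 ± 18.8 CPM in IF16 and 253 ± 36.7 CPM in AL (SD, n = 5 each) with log2 fold change 0.38, SE 0.14, adjusted p = 0.0355 in EOD against AL. It was lost when EOD replicate 1, 2 or 3 or AL replicate 2, 4 or 5 was left out alone (adjusted p up to 0.104), and was 0.52 (adjusted p = 0.00150) without EOD replicate 5.

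**Figure D5:**
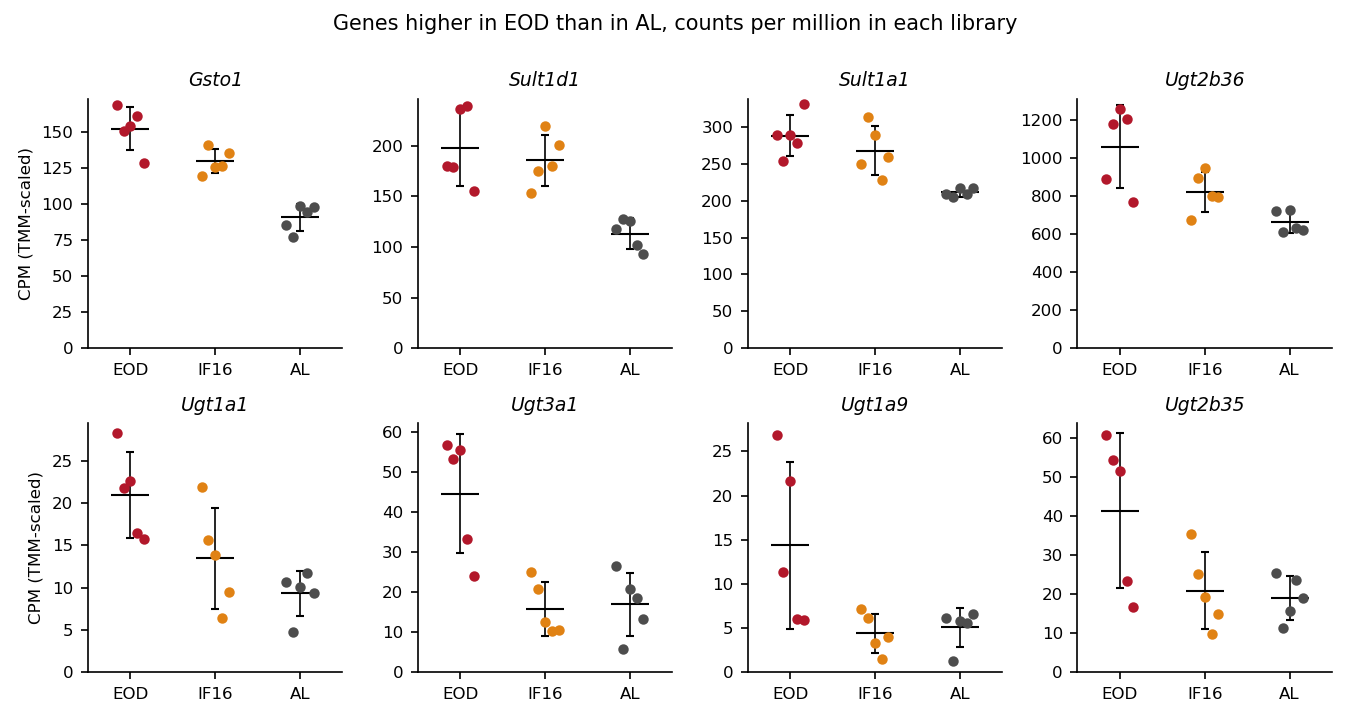
TMM-scaled CPM of 8 genes that were higher in EOD than in AL, in each library (points) with group mean and SD (bars), each panel with its own axis from 0. Every EOD and IF16 point of Gsto1, Sult1d1 and Sult1a1 lies above the AL points, and EOD replicates 4 and 5 of Ugt3a1, Ugt1a9 and Ugt2b35 lie below EOD replicates 1 to 3, those of Ugt3a1 at 33.3 and 24.1 CPM.

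Sult1d1 was higher under both regimens and Sult1a1 in EOD. Summed over the 18 SULT genes taken by name, transcripts were at 473 to 569 CPM in EOD, 459 to 567 CPM in IF16 and 351 to 393 CPM in AL. That sum leaves out 2810007J24Rik (Sult2a8 in the reference), which alone exceeded it in every library. This gene had 691.5 to 1394 CPM in EOD, 859 to 1036 CPM in IF16 and 676 to 862 CPM in AL, with overlap. The sums of the GST, MGST and UGT genes overlapped between all 3 groups. Sult1d1, which sulfates catecholamines and other phenols, lies at chr5:87554645-87569027 and had 180.4, 179, 237, 239 and 156 CPM in the EOD libraries, 154, 175, 219.6, 180.5 and 200.5 CPM in the IF16 libraries and 118, 127, 126, 102 and 92.7 CPM in the AL libraries. Every EOD and IF16 library was above every AL library. It was 1.75-fold higher in EOD (log2 fold change 0.81, SE 0.14, adjusted p = 0.000275) and 1.64-fold higher in IF16 (log2 fold change 0.72, SE 0.14, adjusted p = 0.00749) than in AL. Without AL replicates 4 and 5, the lowest of AL, these were 0.71 (adjusted p = 0.00314) in EOD and 0.60 (adjusted p = 0.0512) in IF16. Sult1a1, the phenol sulfotransferase, had 289, 253, 289, 279 and 332 CPM in the EOD libraries, 249.9, 313, 289, 228 and 259 CPM in the IF16 libraries and 208, 204, 218, 209 and 218 CPM in the AL libraries. The AL libraries were below all others. It rose in EOD, 0.45 (SE 0.10, adjusted p = 0.00227), and was 0.34 (SE 0.10, adjusted p = 0.0652) in IF16 against AL, just outside the threshold.

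Of the less abundant sulfotransferases, 3 were lower in EOD in 1 comparison each. Sult1b1, which sulfates thyroid hormones and phenols, had 20.7, 23.2, 32.0, 24.99 and 17.1 CPM in the EOD libraries, 37.3, 38.5, 36.9, 31.2 and 34.5 CPM in the IF16 libraries and 29.1, 17.1, 31.0, 24.5 and 20.2 CPM in the AL libraries. The IF16 libraries were above every AL library, but the difference missed the threshold (log2 fold change 0.55, SE 0.16, adjusted p = 0.0751). The EOD libraries, all but replicate 3, were below every IF16 library, and Sult1b1 was lower in EOD than in IF16 (log2 fold change -0.60, SE 0.16, adjusted p = 0.0205). This call was lost when EOD replicate 1 was left out alone (adjusted p up to 0.0582). Sult1c2, at 1.35 to 6.25 CPM, averaged 2.92 ± 1.05 CPM in EOD, 5.46 ± 1.01 CPM in IF16 and 4.42 ± 1.16 CPM in AL (SD, n = 5 each). It fell in EOD against IF16, -0.90 (SE 0.25, adjusted p = 0.0196), a call lost when EOD replicate 3 or IF16 replicate 5 was left out alone (adjusted p up to 0.0507). Against AL it was -0.60 (SE 0.25, adjusted p = 0.0687), and -0.81 (adjusted p = 0.0275) without AL replicates 4 and 5. Sult5a1 averaged 4.87 ± 2.16 CPM in EOD, 9.23 ± 4.35 CPM in IF16 and 10.01 ± 3.53 CPM in AL (SD, n = 5 each), and its groups overlapped. Its call in EOD against AL, -1.03 (SE 0.39, adjusted p = 0.0499), held in 10 of the 26 alternatives and was lost when EOD replicate 1, 3, 4 or 5, IF16 replicate 1, 3 or 4 or AL replicate 2, 3 or 5 was left out alone (adjusted p up to 0.124). Sult2a7 was the 1 Sult2 gene taken by name that was tested, and it passed in no comparison. It had 11.99 CPM in IF16 replicate 1 against 2.27 to 5.04 CPM in the other 14 libraries. Sult2a8, listed under another name, is given further below.

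Across the 3 comparisons, Gsto1, Sult1d1, Gstt2 and Gstm4 were called in both EOD and IF16 against AL with the same sign, and Gsta4 in IF16 only. That a gene passed in 1 regimen and not in the other does not show that the regimens differ, and the direct comparison of EOD with IF16 passed for 14 genes. In that comparison the 12 lower genes were Gsta1, Gsta4, Gstm1, Gstm2, Gstm3, Gstm5, Gstm6, Gstm7, Gstt1, Sult1b1, Sult1c2 and Ugt1a6a, and the 2 higher were Ugt1a9 and Ugt3a1. The calls of 13 genes in EOD against AL held in all 26 alternatives: Gsta1, Gstm1, Gstm2, Gstm3, Gstm4, Gstm6, Gstm7, Gsto1, Sult1a1, Sult1d1, Ugt1a1, Ugt2b36 and Ugt3a1.

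The genes that supply the donors of conjugation passed in EOD against AL at shares of 37.5% to 43.8%, beside 35.2% of all genes. Those of PAPS and glutathione supply passed in both directions, and those of UDP-glucuronate supply were only lower. Of 8 genes of UDP-glucuronate supply, 3 were lower and 0 higher in EOD than in AL, a share of 37.5%. Among them were Slc35d1, a carrier of UDP-glucuronate into the endoplasmic reticulum (log2 fold change -1.13, SE 0.13, adjusted p = 5.57e-06), and Ugdh, which makes UDP-glucuronate (log2 fold change -0.60, SE 0.11, adjusted p = 0.000654). Ugdh had 154, 148, 114, 119 and 137 CPM in the EOD libraries, 171, 169, 167, 143 and 150.4 CPM in the IF16 libraries and 200.3, 168, 207, 243 and 198 CPM in the AL libraries, and its EOD libraries lay below every AL library. Of 8 genes of PAPS supply, 2 were lower and 1 higher in EOD than in AL, again 37.5%. Papss1, a PAPS synthase, had log2 fold change -1.14, SE 0.14, adjusted p = 1.49e-05, Slc26a1, a sulfate transporter, had -0.47 (adjusted p = 0.0371), and Bpnt1, which degrades the used donor, had 0.38 (adjusted p = 0.0440).

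Of 16 genes of glutathione supply and turnover, 5 were higher and 2 lower in EOD than in AL, a share of 43.8% beside the 35.2% of all genes. The 3 with the smallest p were Gnmt, which methylates glycine with S-adenosylmethionine (log2 fold change 1.37, SE 0.22, adjusted p = 0.000235), Cth, which makes cysteine (log2 fold change 0.77, SE 0.13, adjusted p = 0.000251), and Oplah, which opens 5-oxoproline (log2 fold change 0.59, SE 0.11, adjusted p = 0.000429). Gclc, the catalytic subunit of the first enzyme of glutathione synthesis, had log2 fold change 0.69, SE 0.17, adjusted p = 0.00497 and was chosen after its value was seen. In IF16 the 1 call was Cbs, which feeds the same cysteine pathway, at -0.85 (SE 0.15, adjusted p = 0.00467). Of 19 other conjugating enzymes, 4 were higher and 7 lower in EOD than in AL, a share of 57.9%. Nat8, which acetylates cysteine conjugates of glutathione, averaged 15.9 ± 3.92 CPM in EOD, 74.6 ± 9.45 CPM in IF16 and 40.6 ± 5.20 CPM in AL (SD, n = 5 each). It moved in opposite directions against AL, -1.35 (SE 0.15, adjusted p = 6.31e-06) in EOD and 0.88 (SE 0.15, adjusted p = 0.00331) in IF16, and EOD against IF16 gave -2.23 (SE 0.15, adjusted p = 9.72e-08). Tpmt, the thiopurine methyltransferase, had -0.83 (SE 0.10, adjusted p = 1.46e-05) in EOD against AL.

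Among 21 regulators of these genes, 3 were higher and 3 lower in EOD than in AL. Ppara, the fatty acid receptor, averaged 47.1 ± 3.29 CPM in EOD, 35.2 ± 1.51 CPM in IF16 and 24.99 ± 4.82 CPM in AL (SD, n = 5 each), with 0.92 (SE 0.11, adjusted p = 1.93e-05) in EOD and 0.49 (SE 0.11, adjusted p = 0.0222) in IF16 against AL. Nr1i3, the receptor CAR, had 0.82 (SE 0.20, adjusted p = 0.00387) in EOD and 0.83 (SE 0.20, adjusted p = 0.0255) in IF16. Nfe2l2, which encodes NRF2, was lower in EOD than in IF16 (log2 fold change -0.37, SE 0.12, adjusted p = 0.0379). Of 13 NRF2 targets outside the conjugation genes, 3 were higher and 5 lower in EOD than in AL, and the 3 with the smallest p were the pentose phosphate genes Pgd (-1.81), Taldo1 (-0.98) and Tkt (-1.30). Of 14 P450 genes known as targets of AHR, CAR and PXR, 6 were higher and 2 lower, with Cyp3a11 at 1.66 (SE 0.16, adjusted p = 1.35e-06), Cyp3a25 at 0.95 (SE 0.11, adjusted p = 9.12e-06) and Cyp1a2 at -1.12 (SE 0.13, adjusted p = 6.48e-06). Of 16 hydrolases of conjugates and epoxides 5 were higher and 2 lower, led by the carboxylesterases Ces1c (0.58) and Ces1d (1.62) and the arylsulfatase Arsa (-0.62). Of 11 efflux transporters 3 were higher and 2 lower, with the phospholipid exporter Abcb4 at 0.91, Abcc3, which exports glucuronides into blood, at 0.67 and Abcg2, an exporter of sulfate conjugates, at -0.40. Of these lists, 28.6% of the regulators, 61.5% of the NRF2 targets, 57.1% of the P450 genes, 43.8% of the hydrolases and 45.5% of the transporters passed in EOD against AL, beside the 35.2% of all genes.

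Some relatives are listed in the table under other names and fall outside the naming rule. They were looked up in the reference name table, and their values were seen before they were chosen. The gene listed as 2810007J24Rik, named Sult2a8 in the reference, averaged 1096 ± 353 CPM in EOD, 931 ± 72.4 CPM in IF16 and 757 ± 70.3 CPM in AL (SD, n = 5 each), with log2 fold change 0.53, SE 0.17, adjusted p = 0.0238 in EOD against AL. The gene listed as BC021614, named Gstp3 in the reference, averaged 10.7 ± 2.85 CPM in EOD, 24.1 ± 2.61 CPM in IF16 and 23.6 ± 3.67 CPM in AL (SD, n = 5 each). Its EOD libraries were below every IF16 and AL library, with log2 fold change -1.15, SE 0.16, adjusted p = 5.30e-05 against AL and log2 fold change -1.18, SE 0.16, adjusted p = 0.000146 against IF16.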

How the data were processed

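Counts per gene and FPKM are the values the authors deposited, with 1 column per library; the deposited counts are raw, and the deposited FPKM equal the count divided by the listed gene length and the library total in 100% of cells (relative tolerance 1e-06). Per the submitters' processing notes, which give no role or order, the tools were STAR 2.5, HTSeq 0.6.1 and DESeq2 and the build mm10. For strand setting, read length and annotation release, nothing is given in the sources used here. Reads of overlapping genes, antisense genes and near-identical copies may be mixed. Libraries were grouped by their titles.

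Genes were kept by filterByExpr (minimum count 10). All 15 libraries entered 1 fit in edgeR 4.0.16 under R 4.3.3, with TMM scaling and a mean per group, and each contrast of groups had a quasi-likelihood F test, with Benjamini-Hochberg adjustment over 13837 genes and a threshold of 0.05. The SE of a log2 fold change is its size over the root of F. The procedure was tested on simulated data with 200 changed genes, in EOD against AL. It recovered 24% of them at a 1.5-fold change, 70% at 2-fold and 92.5% at 4-fold. A gene that did not pass may thus still have changed by a small factor. The alternatives were DESeq2 size factors, the DESeq2 1.42.0 Wald test, other filters, the 2 groups alone, a replicate block, each library left out, AL replicates 4 and 5 left out, limma 3.58.1 on log2 FPKM plus 1 or 0.1, and, chosen after seeing the data, AL replicates 4 and 5 and EOD replicate 5 left out together.

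The members and gene lists were chosen with earlier results of these data known. The text names every member called in any comparison and the 2 of highest FPKM in each subfamily; the 5 other tested members are given so that each is accounted for. From each pathway list at most 3 genes per comparison are named, by smallest p, and 1 such gene is not reported here. A planned ranking of members by likeness of pattern is not given, because the libraries fall into groups. Of the 62 members, 61 carry the same symbol in the reference, 54 have a RefSeq promoter and 46 have their listed start inside its window. Shared windows are 50-base runs of a gene's transcript found in another gene's transcripts in the reference. No library was counted as a repeat of another: the chi-square between libraries of a group, over its degrees of freedom, was 23.1 to 201. Python 3.11.15, pandas 2.3.3, Biopython 1.88 and matplotlib 3.10.9 were used for tables, alignments and figures.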

Additional observations from a re-analysis of the deposited data

Results flagged for a closer look

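In 5 of 126 groups of 5 libraries, over the 42 tested genes, 1 library lay far from the other 4 by Dixon's criterion, with a critical value of 0.71. Chance singles out about 1 in 20 such groups. EOD replicate 5 had 0 of these flags, so the values given without it do not rest on this criterion. Gsta1 was at 10.2 CPM in IF16 replicate 4 and at 17.2 to 19.95 CPM in the other IF16 libraries. Sult2a7 was at 11.99 CPM in IF16 replicate 1 and at 2.27 to 3.06 CPM in the other 4. Ugt1a6a was at 9.37 CPM in IF16 replicate 2 and at 10.95 to 11.3 CPM in the others. AL replicate 2 lay apart for both Ugt1a1, at 4.8 CPM against 9.42 to 11.7 CPM in the other AL libraries, and Ugt1a9, at 1.28 CPM against 5.56 to 6.65 CPM.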

How the results depend on the processing

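Of the calls, 13 of 24 in EOD against AL, 2 of 5 in IF16 against AL and 7 of 14 in EOD against IF16 held under all 26 alternatives. With each library left out in turn, the number of members called ran from 15 to 25 in EOD against AL (15 without EOD replicate 1 and without EOD replicate 3), from 4 to 7 in IF16 against AL, and from 8 to 19 in EOD against IF16 (8 without IF16 replicate 5, and 9 without EOD replicate 1 and without EOD replicate 3). Without AL replicates 4 and 5 the counts were 17, 2 and 15 in the same order, and with EOD replicate 5 left out too, a choice made after seeing the data, they were 25, 4 and 23. The DESeq2 Wald test called 27, 8 and 17. Over all genes, IF16 against AL gave 484 calls, 937 by the DESeq2 Wald test, 261 by limma with no filter, and 269, 241 and 254 without IF16 replicate 2, 3 and 5. EOD against IF16 gave 2229 calls over all genes, 1460, 1418 and 3383 without EOD replicate 1, IF16 replicate 5 and EOD replicate 5, and 3622 without AL replicates 4 and 5 and EOD replicate 5. No setting moved the median of all genes by over 0.1 on the log2 scale.

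With the replicate number as a block, 21, 6 and 14 members were called. The libraries share only a number: deviations of same-numbered libraries correlated at -0.08 to 0.184 in EOD and AL, at -0.13 to 0.218 in IF16 and AL, and at 0 to 0.142 in EOD and IF16.

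Signs changed without AL replicates 4 and 5 for Gstp2 (log2 fold change 0.36 in EOD and 0.29 in IF16 against AL), Ugt2b38 (0.50 and 1.15), Ugt2b37 in EOD (0.24), Gsta2 in EOD (-0.037), and Gstt1, Gstt3 and Ugt2b1 in IF16 (-0.0059, -0.12 and 0.014). With EOD replicate 5 left out as well the values were 0.28 and 0.28 for Gstp2, 0.65 and 1.14 for Ugt2b38, 0.46 for Ugt2b37, -0.17 for Gsta2, -0.020 for Gstt1 and -0.13 for Gstt3. With 1 library left out at a time, Gstp2 ran from -3.02 to -1.75 in EOD and -3.08 to -1.80 in IF16, Ugt2b38 from -2.82 to -1.80 in EOD and -2.14 to -1.13 in IF16, Ugt2b37 from -2.08 to -0.38 in EOD and Gsta2 from 0.22 to 0.69 in EOD. In IF16, Gstt1 ran from 0.15 to 0.40, Gstt3 from 0.07 to 0.40, Ugt2b1 from -0.37 to -0.14, and Sult2a7 from -0.29, without IF16 replicate 1, to 0.59. The cause of these changes was not tested. The 20 genes below the filter had at most 29 counts in a library, and limited depth and low expression cannot be told apart there. Depth may also limit Ugt2b37, the lowest gene tested.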
